A study of Mus musculus with 8 samples.

Results

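Cell death genes were examined in the small intestine of mice that lack the NF-κB inhibitor IκBα (gene Nfkbia) in the intestinal epithelium. The members were 33 genes of apoptosis, necroptosis and pyroptosis, chosen by gene symbol. Of these, 31 had a probe set among the 22206 measured, each with 1 probe set, while Bax and Ripk1 were not analysed here. RNA came from 4 knockout (KO) mice, with floxed Nfkbia deleted by villin-driven Cre, and from 4 wild-type (WT) littermates, 1 for each KO mouse, which gave 4 sibling pairs. The mice were untreated, 8 to 11 weeks old, and 2 of each group were male by label; siblings were of the same sex in pairs 1 and 2 and of opposite sex in pairs 3 and 4. The deletion takes out the promoter with its NF-κB sites and the first exons, in villin-expressing cells only. The RNA was from frozen tissue (duodenum in the series text, small intestine in the sample labels), so cells that keep Nfkbia are also in it. The labels do not say whether the WT mice carry floxed alleles or Cre. In such bulk RNA, fewer cells of a type and less RNA per cell cannot be told apart.

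Apoptosis is started either by death receptors, which activate caspase-8 through adaptors, or by mitochondria, where the BCL2 family sets whether BAX and BAK open pores that release activators of caspase-9. Necroptosis is a lytic death in which RIPK3 phosphorylates MLKL, and caspase-8 restrains it. Pyroptosis is a lytic death by gasdermin pores, opened after inflammatory caspases cut gasdermin D. In the gut, NF-κB is known to induce genes that block death as well as genes that promote inflammation, and TNF can kill epithelial cells when that balance shifts.

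Values are log2 expression per probe set, and differences are KO minus WT within a pair. In the files the 4 pairs had nearly equal means, so the spread within a group is not that between mice. Each difference is given with the SD of the 4 within-pair differences. A gene was called where limma, fitted to all probe sets with the sibling pair as a block, gave an adjusted p (Benjamini-Hochberg) under 0.05. Exact sign flips within 4 pairs cannot give p below 0.125, so no single gene was tested that way. Nfkbia was 6.82, 6.65, 7.72 and 6.65 in KO mice 1 to 4, against 9.75, 9.91, 9.01 and 9.78 in WT mice 1 to 4. It fell by 2.65 ± 0.918 (log2, limma adjusted p = 0.0130), and least in pair 3. Its call was lost without pair 1, 2 or 4 (adjusted p from 0.0512 to 0.0582), and over 13 other settings its adjusted p ran from 2.92e-04 to 0.209. The 8 enterocyte markers were all above the background level of 5.65, set from olfactory receptor probe sets. Their mean level was 12.0 to 12.5 in KO mice and 12.6 to 13.1 in WT mice, with 1 of the 8 called lower, and 4 of 5 mast cell markers were also called lower. Pairs 1 and 2 differed in adipocyte markers (medians of 5 genes 4.26 and 3.98, against 0.34 and −0.27 in pairs 3 and 4). Pairs 3 and 4 differed in pancreatic acinar markers (medians of 6 genes −3.98 and −3.32, against −0.43 and 0.46 in pairs 1 and 2). The part of these cells in the results below was not tested, and each called member is given within both sets of pairs.

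Of the 31 measured cell death genes, 4 rose: Casp4, Mlkl, Bid and Casp8. All 4 were classed as promoting death, as were 26 of the 31 measured, although caspase-8 also restrains necroptosis. Only Mcl1, which restrains apoptosis, fell. The 4 are 12.9% of the members, where 3.16% of all probe sets were called higher; the 1 lower gene is 3.23%, where 2.7% of all probe sets were called lower. In either direction 5 of 31 were called, where 5.86% of all probe sets were. At an adjusted p under 0.1, 6 members were higher and 2 lower, where 7.53% and 7.34% of all probe sets were. The median difference was 0.12 over the members and −0.015 over all probe sets, with member medians of 0.02, 0.04, 0.10 and 0.05 in pairs 1 to 4. In 9 members every KO value lay above every WT value (29.0%, against 15.9% of all probe sets), and in 6 every KO value lay below (19.4%, against 17.2%). Since the pair means were nearly equal, groups that do not overlap say nearly the same as 4 of 4 pairs in 1 direction, and the one is no support for the other. The KO mouse was the higher sibling in 4 of 4 pairs for 10 members (32.3%, against 16.5% of all probe sets) and the lower in 4 of 4 pairs for 6 (19.4%, against 17.9%). Most of the calls were lost when a pair was left out. Without pair 1, 2, 3 or 4 the members called higher were 1, 0, 2 and 1, and those called lower 0, 0, 1 and 0, while over all probe sets these fits called 89 to 219 higher and 56 to 240 lower, against 702 and 599 with all pairs. Without the block, limma called 12 members higher and 6 lower, where it called 16.3% and 18.1% of all probe sets. That fit treats siblings as independent, although they deviated in opposite directions from their groups, so its p-values may be too small. The low end of each adjusted p range over 13 other settings, above and below, comes from that fit.

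**Figure D1:**
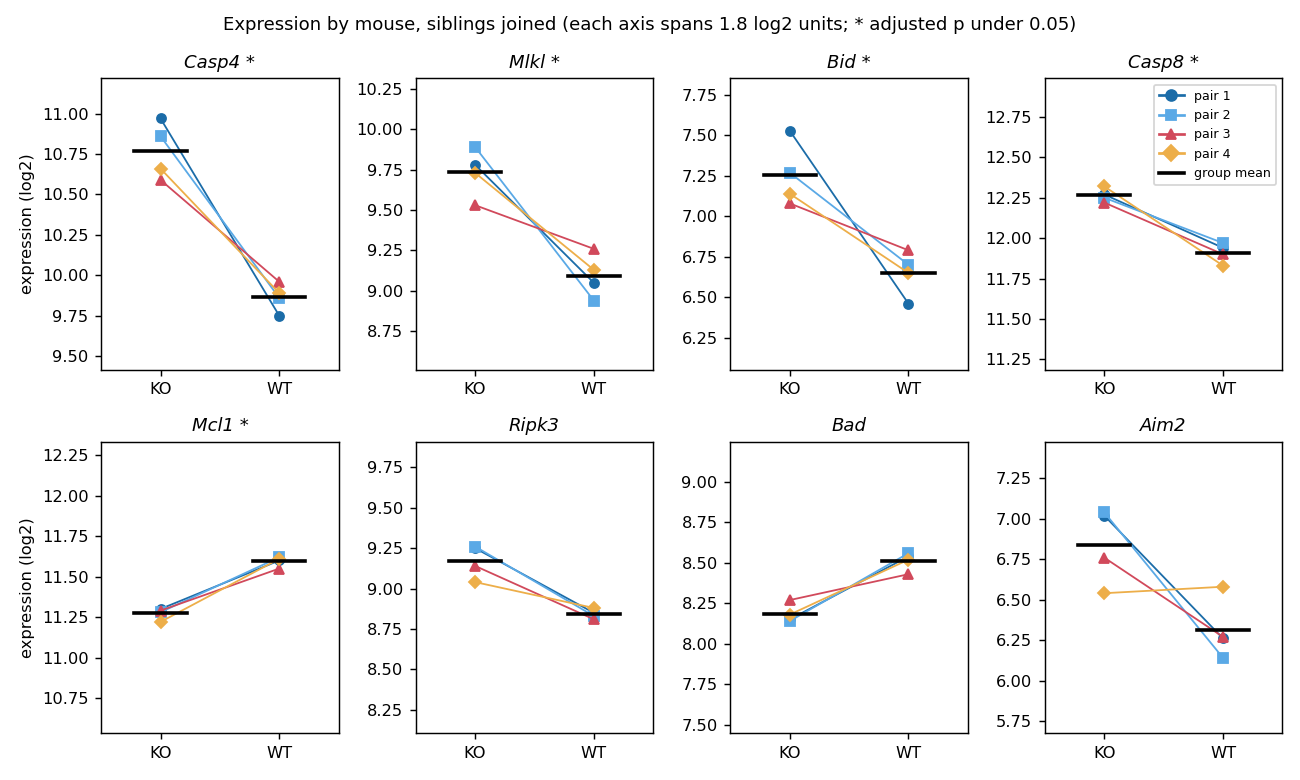
Expression (log2, y axis) of 8 cell death genes in each mouse, KO left of WT, with siblings joined and group means as bars. Casp4, Mlkl, Bid and Casp8 are higher in KO in 4 of 4 pairs and Mcl1 is lower in 4 of 4; Ripk3, Bad and Aim2 had adjusted p from 0.0585 to 0.0907.

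Among the receptor and adaptor genes, Casp8, the initiator caspase that death receptors activate, rose. It was 12.27, 12.25, 12.22 and 12.32 in KO mice 1 to 4, against 11.94, 11.97, 11.90 and 11.83 in WT mice 1 to 4. The groups did not overlap, and Casp8 was higher by 0.36 ± 0.0926 over the 4 pairs, or 1.28-fold (limma adjusted p = 0.0443). The difference averaged 0.31 in pairs 1 and 2 and 0.41 in pairs 3 and 4. The call was lost without any 1 pair, with sex or RNA integrity added, with quantile normalization and with housekeeping centring. The difference was 0.31 to 0.38 without 1 pair and 0.19 with housekeeping centring (adjusted p = 0.132), and over 13 other settings the adjusted p ran from 7.75e-04 to 0.212. Cflar, which encodes c-FLIP, the regulator that binds caspase-8 and holds it back, was 9.93, 10.06, 9.96 and 9.97 in KO mice, against 10.24, 10.14, 10.14 and 10.14 in WT mice. Its difference was −0.19 ± 0.0947 and lower in 4 of 4 pairs, but did not pass the test (limma adjusted p = 0.165).

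The adaptors went in both directions and neither passed the test. Fadd, which links death receptors to caspase-8, was 8.80, 8.72, 8.69 and 8.81 in KO mice, against 8.50, 8.59, 8.61 and 8.53 in WT mice, a difference of 0.20 (95% interval 0.017 to 0.38, limma adjusted p = 0.155). Tradd, the adaptor of the TNF receptor, was 10.02, 9.99, 9.99 and 9.98 in KO mice, against 10.19, 10.26, 10.12 and 10.18 in WT mice, a difference of −0.19 (95% interval −0.36 to −0.027, limma adjusted p = 0.138). For both the groups did not overlap. Of the receptors, Fas differed by 0.37, 0.41, −0.05 and 0.15 in pairs 1 to 4 (mean 0.22, limma adjusted p = 0.203). Tnfrsf10b, the TRAIL receptor, differed by 0.02, 0.28, −0.22 and 0.05 (mean 0.03, limma adjusted p = 0.857).

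None of the 6 measured genes of the apoptosome and the caspases downstream was called by limma, with 1, Casp6, at an unadjusted p under 0.05 and the same 1 called without the block. Casp6, which encodes an executioner-type caspase, was 9.82, 10.47, 10.27 and 10.22 in KO mice, against 9.69, 9.16, 9.85 and 9.92 in WT mice. It was higher in 4 of 4 pairs, by 0.54 ± 0.527 (limma adjusted p = 0.131), but the groups overlapped and pair 2 alone differed by 1.31. Without pair 2 the mean difference of Casp6 was 0.28. Apaf1, the scaffold of the apoptosome, differed by −0.02, 0.01, 0.24 and 0.29 in pairs 1 to 4. Casp9, the initiator it activates, differed by −0.26, −0.23, 0.02 and 0.06, so for both genes pairs 1 and 2 lay below pairs 3 and 4. Xiap, an inhibitor of caspases, and Diablo, the mitochondrial protein that relieves that inhibition, had the narrowest intervals of this group, with differences of −0.025 (95% interval −0.19 to 0.14) and 0.020 (95% interval −0.15 to 0.19). Casp12, a caspase tied to the endoplasmic reticulum, differed by 0.58 in pair 1 and by −0.07, 0.16 and −0.11 in pairs 2 to 4.

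The BCL2 family was split. Of 10 measured members, 1 rose, 1 fell and 8 did not pass the test, with a median of −0.073. Bid, a BH3-only protein that caspase-8 cuts to carry the death signal to mitochondria, rose. It was 7.53, 7.27, 7.08 and 7.14 in KO mice 1 to 4, against 6.46, 6.70, 6.79 and 6.65 in WT mice 1 to 4. The groups did not overlap, and the difference was 0.61 ± 0.332, or 1.52-fold (limma adjusted p = 0.0482). It was largest in pair 1, at 1.07, and averaged 0.82 in pairs 1 and 2 and 0.39 in pairs 3 and 4. The call was lost without any 1 pair (adjusted p from 0.0641 to 0.139) and with sex or RNA integrity added; over 13 other settings its adjusted p ran from 0.00311 to 0.226.

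Mcl1, the short-lived protein that holds BAK in check, fell in every pair. It was 11.30, 11.28, 11.29 and 11.22 in KO mice, against 11.60, 11.62, 11.55 and 11.61 in WT mice. The groups did not overlap, and the difference was −0.32 ± 0.0556 (1.25-fold lower, limma adjusted p = 0.0473), with −0.32 in pairs 1 and 2 and −0.33 in pairs 3 and 4. Its call too was lost without any 1 pair, with differences between −0.34 and −0.30, and with sex (adjusted p = 0.0903) or RNA integrity (0.0867) added; over 13 other settings its adjusted p ran from 6.16e-04 to 0.237. With housekeeping centring the difference was −0.49. The other protective genes were not called: Bcl2 differed by 0.12 (95% interval −0.071 to 0.31), and Bcl2l1, which encodes BCL-XL, by −0.39, −0.20, 0.06 and 0.24 in pairs 1 to 4.

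The remaining BH3-only genes, which antagonise the protective proteins, differed in opposite directions. Bad was 8.15, 8.14, 8.27 and 8.18 in KO mice, against 8.54, 8.56, 8.43 and 8.52 in WT mice, with no overlap. Its difference of −0.33 ± 0.116 just missed the threshold (limma adjusted p = 0.0585). It passed in 5 of 13 other settings, the fit without the block among them, and its adjusted p ran from 0.00135 to 0.302. Bik differed by −0.51, −0.24, 0.00 and −0.18 in pairs 1 to 4 (limma adjusted p = 0.182), and Bbc3, which encodes PUMA, by −0.11, −0.19, −0.06 and −0.15 (limma adjusted p = 0.282). Bcl2l11, which encodes BIM, differed by 0.14, 0.31, 0.10 and 0.27 (limma adjusted p = 0.141), and Pmaip1, which encodes NOXA, by 0.18, 0.34, 0.10 and 0.18 (limma adjusted p = 0.147). KO and WT values of Bbc3, Bcl2l11 and Pmaip1 did not overlap. Bak1, the pore-forming effector, was lower in 4 of 4 pairs by only 0.02 to 0.12 in size, with a mean of −0.073 (95% interval −0.24 to 0.091).

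**Figure D2:**
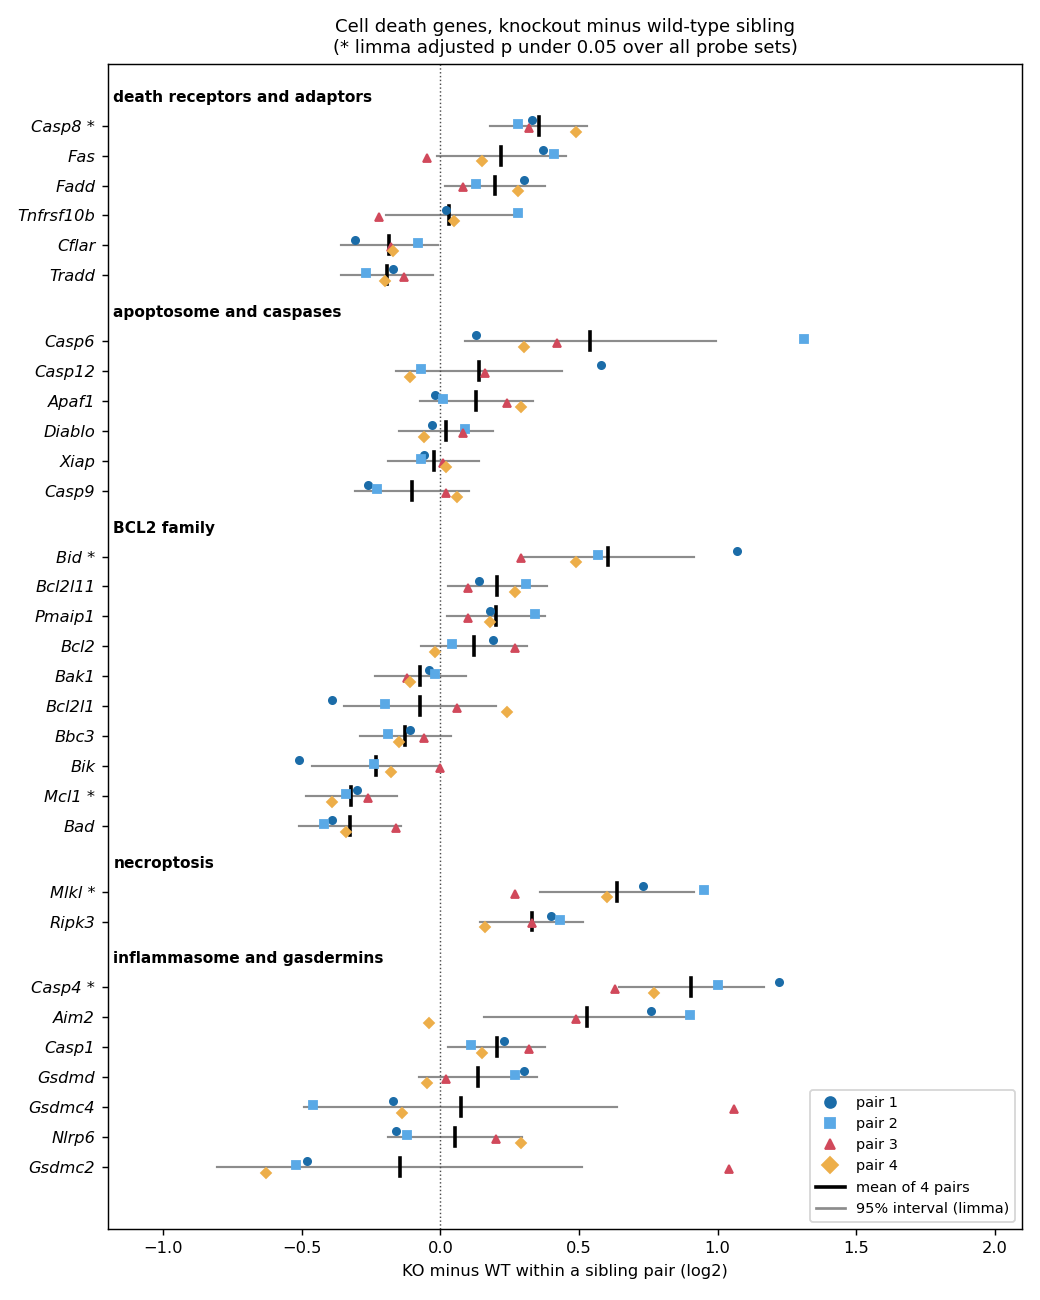
KO minus WT within each sibling pair (log2, x axis) for the 31 measured cell death genes, grouped by role and ordered by mean difference; symbols are pairs, black bars the mean of 4 pairs and grey lines the 95% interval. Asterisks mark the 4 genes called higher and the 1 called lower; Gsdmc2 and Gsdmc4 have the widest spread, with pair 3 above 1 and the other pairs below 0.

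Both measured necroptosis genes were higher in every KO mouse than in any WT mouse, as were 15.9% of all probe sets. Mlkl, the effector that permeabilises the plasma membrane, was 9.78, 9.89, 9.53 and 9.73 in KO mice 1 to 4, against 9.05, 8.94, 9.26 and 9.13 in WT mice 1 to 4. It rose by 0.64 ± 0.284, or 1.56-fold (limma adjusted p = 0.0337), least in pair 3. The mean was 0.84 in pairs 1 and 2 and 0.44 in pairs 3 and 4. Its call was lost without pair 1, 2 or 4 (adjusted p from 0.0963 to 0.108) and kept without pair 3, and it was also lost with sex or RNA integrity added; over 13 other settings its adjusted p ran from 0.00117 to 0.238. Ripk3, the kinase that activates MLKL, was 9.25, 9.26, 9.14 and 9.04 in KO mice, against 8.85, 8.83, 8.81 and 8.88 in WT mice. Its difference of 0.33 ± 0.121 just missed the threshold (limma adjusted p = 0.0587). It passed in 3 of 13 other settings, the fit without the block among them, and its adjusted p ran from 0.00262 to 0.302. With housekeeping centring the Ripk3 difference was 0.16 (limma adjusted p = 0.153).

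Casp4 had the largest difference of the 31 members. It encodes the mouse caspase-11, which binds bacterial lipopolysaccharide in the cytosol and cuts gasdermin D. It was 10.97, 10.86, 10.59 and 10.66 in KO mice 1 to 4, against 9.75, 9.86, 9.96 and 9.89 in WT mice 1 to 4. The lowest KO value lay 0.63 above the highest WT value. It rose by 0.91 ± 0.260, or 1.87-fold (limma adjusted p = 0.0137), with means of 1.11 in pairs 1 and 2 and 0.70 in pairs 3 and 4. Casp4 was called in 10 of 13 other settings. It lost the call without pair 2 (adjusted p = 0.0647), without pairs 1 and 2 (0.166) and without pairs 3 and 4 (0.109). Its lowest adjusted p, 2.27e-04, came from the fit without the block.

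The promoter of Casp4 is shown because NF-κB, which IκBα restrains, binds the κB consensus, and Casp4 held more matches than any other member in the promoter table. The 250 bases before each listed start were searched on both strands for the κB consensus, with overlapping matches counted apart, in the RefSeq promoters of build GRCm38.p6. The table matched 24 of the 31 members, with 33 promoters, and 3 of these genes had a match: Casp4, Bbc3 and Bcl2l1. Of the 33 member promoters, 4 held at least 1 match (12.1%), where 7.25% of all 32851 listed promoters did. At least 3 matches, as in Casp4, were held by 0.143% of all. Casp4 was picked for its matches, so that share is not a test of it. Capitals mark the matches, and each sequence runs 5′ to 3′ toward the start of the gene.
Casp4, chr9:5308599-5308848, + strand: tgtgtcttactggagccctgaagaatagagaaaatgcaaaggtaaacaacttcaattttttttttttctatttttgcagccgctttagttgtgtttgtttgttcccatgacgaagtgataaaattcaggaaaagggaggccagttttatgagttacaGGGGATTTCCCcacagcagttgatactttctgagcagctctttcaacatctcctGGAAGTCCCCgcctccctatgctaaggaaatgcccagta
Bbc3, chr7:16309333-16309582, + strand: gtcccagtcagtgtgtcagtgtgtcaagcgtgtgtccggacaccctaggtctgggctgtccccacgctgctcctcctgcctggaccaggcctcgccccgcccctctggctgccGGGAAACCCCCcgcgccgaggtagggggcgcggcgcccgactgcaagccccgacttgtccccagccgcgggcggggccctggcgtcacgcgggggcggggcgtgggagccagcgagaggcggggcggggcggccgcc
Bcl2l1, chr2:152830718-152830967, − strand: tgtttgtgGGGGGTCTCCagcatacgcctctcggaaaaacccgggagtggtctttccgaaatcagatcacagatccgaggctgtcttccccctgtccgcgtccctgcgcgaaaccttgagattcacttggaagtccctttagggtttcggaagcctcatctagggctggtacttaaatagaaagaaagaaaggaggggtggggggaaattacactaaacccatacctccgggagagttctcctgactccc
Casp4 has 3 matches in 2 stretches, the nearest ending 29 bases before the start; Bbc3 has 2 that overlap, and Bcl2l1 has 1. A second listed start of Casp4 has the same 3 matches, the nearest 40 bases before it, while the table lists 2 more promoters each for Bbc3 and Bcl2l1, all with 0 matches. Bbc3 and Bcl2l1 were not called (−0.13 and −0.073), and in the windows of the called genes Mlkl, Bid, Casp8 and Mcl1 these letters were not found. The core of interferon-stimulated response elements, searched in the same way, was in 0 of the 33 member promoters and in 2.98% of all promoters. A match is a description of the sequence, and binding was not measured.

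The other inflammasome and gasdermin genes were not called. Casp1, the caspase that matures interleukin-1β and interleukin-18, was 10.79, 10.73, 10.79 and 10.69 in KO mice, against 10.56, 10.62, 10.47 and 10.54 in WT mice. The groups did not overlap, but the difference of 0.20 ± 0.0929 did not pass the test (limma adjusted p = 0.140). Aim2, the sensor of cytosolic DNA, was 7.02, 7.04, 6.76 and 6.54 in KO mice, against 6.26, 6.14, 6.27 and 6.58 in WT mice, so pair 4 showed no gain. Its mean difference was 0.53 ± 0.415 (limma adjusted p = 0.0907), with 0.83 in pairs 1 and 2 and 0.23 in pairs 3 and 4. B cell markers, whose 5 measured genes had medians of 1.01 and 0.72 in pairs 1 and 2 and of −0.11 and −0.05 in pairs 3 and 4, went the same way, with mean levels of 8.24 to 8.87 in KO mice and 7.93 to 8.37 in WT mice; their part in the Aim2 values was not tested. Gsdmd, the pore-forming target of Casp1 and Casp4, differed by 0.30, 0.27, 0.02 and −0.05 in pairs 1 to 4 (mean 0.14, limma adjusted p = 0.369). Nlrp6, an inflammasome sensor of gut epithelium, differed by −0.16, −0.12, 0.20 and 0.29 (mean 0.053, limma adjusted p = 0.770).

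Inflammasome genes are also used by myeloid cells. The 6 measured macrophage markers had 0 genes called higher or lower by limma, with mean levels of 7.84 to 8.11 in KO mice and 7.87 to 8.15 in WT mice. Their medians were 0.26, 0.175, 0 and −0.40 in pairs 1 to 4, so pairs 1 and 2 lay above pairs 3 and 4. The 5 measured neutrophil markers also had 0 called, with mean levels of 5.32 to 5.49 in KO mice and 5.22 to 5.39 in WT mice. Neutrophil medians were 0.26, −0.06, 0.18 and 0.10 in pairs 1 to 4, and S100a8, S100a9 and Cxcr2 were below the background level. The part of either cell type in the inflammasome values was not tested.

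The gasdermin C genes, which are close relatives in 1 cluster, differed in step with each other across pairs. Gsdmc2 was 6.85, 6.89, 7.37 and 6.37 in KO mice, against 7.33, 7.41, 6.33 and 7.00 in WT mice. Gsdmc4 was 7.23, 7.12, 7.65 and 6.95 in KO mice, against 7.40, 7.58, 6.59 and 7.09 in WT mice. Both were higher in the KO mouse of pair 3, by 1.04 and 1.06, and lower in the KO mice of the other 3 pairs. Without pair 3, Gsdmc2 was called lower (−0.54, limma adjusted p = 0.0495, against 0.764 with all pairs), while Gsdmc4 was not (−0.26, 0.227). Their relative Gsdmc3 differed by −0.41, −0.56, 0.65 and −0.49. Probes may not tell these paralogs apart, so the 3 are not independent measurements. The median of the 5 Paneth cell markers was also highest in pair 3, at −1.15, −1.17, 0.07 and −1.04 in pairs 1 to 4. Of these markers Ang4 was called lower, while Mmp7 was higher in 3 of 4 pairs (mean 0.27, limma adjusted p = 0.234). Mean levels of the 5 markers were 10.7 to 11.6 in KO mice and 11.4 to 12.1 in WT mice. Their part in the gasdermin C values was not tested. The 6 tuft cell markers measured had 0 called, with mean levels of 6.17 to 6.32 in KO mice and 6.34 to 6.38 in WT mice.

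Some members lie next to each other in the RefSeq annotation of GRCm38.p6. Casp1, Casp4 and Casp12 follow each other with no gene starting between them. Casp4 rose there by 0.91, while Casp1 differed by 0.20 and Casp12 by 0.14, neither of them called. Cflar and Casp8 are neighbours with no protein-coding gene between them, and their differences had opposite signs in 4 of 4 pairs: −0.31, −0.08, −0.18 and −0.17 for Cflar, and 0.33, 0.28, 0.32 and 0.49 for Casp8. The difference between these neighbours was not tested.

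**Figure D3:**
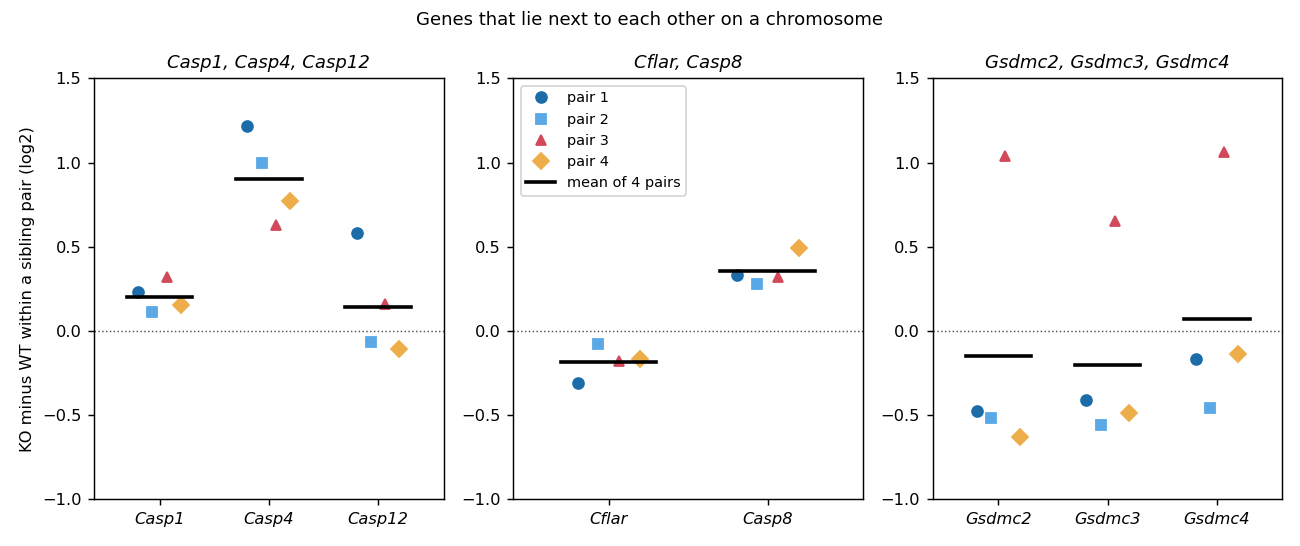
KO minus WT within each sibling pair (log2, y axis) for 3 groups of neighbouring genes; symbols are pairs and bars the mean of 4 pairs. Casp4 is above 0.6 in every pair beside Casp1 and Casp12, Cflar and Casp8 lie on opposite sides of 0, and pair 3 stands above the other pairs for Gsdmc2, Gsdmc3 and Gsdmc4.

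Set by side, 4 of the 26 measured genes classed as promoting death rose and 0 fell by limma, with a median of 0.14. In either direction 14 of the 26 had an unadjusted p under 0.05. Of the 5 that protect cells, 0 rose and 1 fell (2 at unadjusted p under 0.05), with a median of −0.073. Of all 22206 probe sets, 3.16% were called higher, 2.7% were called lower and 6098 had an unadjusted p under 0.05. Centred on housekeeping genes, a scaling under which all probe sets had a median of −0.18 in place of −0.015, the medians became −0.029 and −0.24, so the sign of the first flips. In that fit 3 genes classed as promoting death were called higher (Casp4, Mlkl and Bid) and 4 lower (Tradd, Bad, Bik and Bbc3). Of those that protect, 2 were called lower (Mcl1 and Cflar). Over all 22206 probe sets the same fit called 498 higher and 5175 lower. The 11 housekeeping genes had a median difference of 0.19, with 1, Gusb, called higher, while Actb differed by −0.050. Whether the sides differ was not tested.

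The members also varied between pairs. For 8 of 31 both differences in pairs 1 and 2 lay above those in pairs 3 and 4, among them Casp4, Mlkl, Bid, Ripk3 and Aim2, and for 8 they lay below, among them Apaf1, Casp9, Bad and Nlrp6. Each is 25.8% of the members, where 21.5% and 22.6% of all probe sets showed these orders. Pairs 1 and 2 are those with the adipocyte difference, with higher B cell markers and with siblings of the same sex, and pairs 3 and 4 those with the acinar difference; the part of each was not tested. Casp8 and Mcl1 were in neither set, with differences between 0.28 and 0.49 for Casp8 and between −0.39 and −0.26 for Mcl1.

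Of 73 other gene symbols of these pathways, which list Gsdme under its older name Dfna5 as well, 67 were found. Of these 67 genes, 7 rose and 4 fell. Upstream of the death receptors, Tnf, the cytokine that can trigger caspase-8 or necroptosis, was 8.58, 8.68, 8.26 and 8.71 in KO mice, against 5.53, 5.46, 5.85 and 5.49 in WT mice. It rose by 2.98 ± 0.385 (limma adjusted p = 0.00114), which may be understated, since 3 of the 4 WT values lay below the background level. Fasl, which encodes the ligand of Fas, fell by 0.46 ± 0.166 (limma adjusted p = 0.0355). It averaged 5.67 in KO mice and 6.13 in WT mice, close to background, and the 4 measured T cell markers had mean levels of 7.64 to 7.98 in KO mice and 7.99 to 8.32 in WT mice. Of these 4 markers 1 was called, Cd4, which was higher by 0.40 (limma adjusted p = 0.0427). Cd3e, Cd3g and Cd8a differed by −0.305, −0.56 and −0.34 without a call. The part of T cells in the Fasl values was not tested. The receptor genes Tnfrsf1a and Tnfrsf1b differed by 0.29 and 0.34 and were not called (limma adjusted p = 0.0822 and 0.0606).

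Tnfaip3, Birc3 and Bcl2a1a, which are known to restrain cell death, also rose. Tnfaip3, which encodes the ubiquitin editor A20, rose by 1.31 ± 0.128 (limma adjusted p = 0.00183), and Birc3, which encodes the ubiquitin ligase cIAP2, was 11.47, 11.53, 11.44 and 11.54 in KO mice, against 10.75, 10.71, 10.73 and 10.65 in WT mice. Birc3 rose by 0.79 ± 0.0858 (limma adjusted p = 0.00652), while its relative Birc2 differed by 0.19 (limma adjusted p = 0.224). Bcl2a1a, a protective BCL2 relative, rose by 0.42 ± 0.161 (limma adjusted p = 0.0437), with 0.55 in pairs 1 and 2 and 0.29 in pairs 3 and 4. With housekeeping centring its difference was 0.25 and the call was lost (adjusted p = 0.0611, in a range of 0.00116 to 0.262 over 13 other settings). Its near-identical copies Bcl2a1b and Bcl2a1d differed by 0.12 and 0.14 without a call, and probes may not separate the 3. Tnfaip3, Birc3 and Tnf kept their calls without any 1 pair.

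On the pyroptosis side, Pycard, which encodes ASC, the adaptor that joins inflammasome sensors to caspase-1, was 10.29, 10.33, 10.13 and 10.05 in KO mice, against 9.36, 9.33, 9.55 and 9.61 in WT mice. It rose by 0.74 ± 0.270, or 1.67-fold (limma adjusted p = 0.0225), with no overlap. Il1b averaged 5.87 in KO mice and 5.20 in WT mice. All 4 WT values lay below background, as did that of KO mouse 4, at 5.62. Il1b rose by 0.67 ± 0.338 (limma adjusted p = 0.0399), a difference that may be understated for that reason. Il18 differed by −0.04, 0.83, 0.49 and 0.67 (limma adjusted p = 0.0916). Ninj1, which ruptures the plasma membrane late in lytic death, rose by 0.46 ± 0.192 (limma adjusted p = 0.0416). With housekeeping centring its difference was 0.30 and the call was lost (adjusted p = 0.0613, in a range of 0.00153 to 0.241 over 13 other settings).

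The genes that fell included Gsdme, a pore-forming gasdermin, at 8.73, 8.55, 8.36 and 8.03 in KO mice, against 9.00, 9.26, 8.71 and 8.90 in WT mice. Its difference was −0.55 ± 0.287 (limma adjusted p = 0.0471), and the highest KO value lay just above the lowest WT value. Dffb, the nuclease that cuts DNA in apoptosis, fell by 0.33 ± 0.0645 (limma adjusted p = 0.0480). Bcl2l10 fell by 0.35 ± 0.0690 (limma adjusted p = 0.0412), with both group averages, 3.73 in KO mice and 4.08 in WT mice, below background. The median over the 67 genes was 0.053. Of the 67, 10.4% were called higher and 5.97% lower, where 3.16% and 2.7% of all probe sets were. Without any 1 pair, between 3 and 5 of the 67 were called in all, against 11 with all pairs. Of these fits, Pycard and Il1b kept their calls only in that without pair 4, and Ninj1, Bcl2a1a, Gsdme, Fasl, Bcl2l10 and Dffb lost theirs in all 4. With sex added, Pycard and those 6 lost theirs. With RNA integrity added, Pycard, Il1b, Ninj1, Bcl2a1a, Fasl, Bcl2l10 and Dffb lost theirs.

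**Figure D4:**
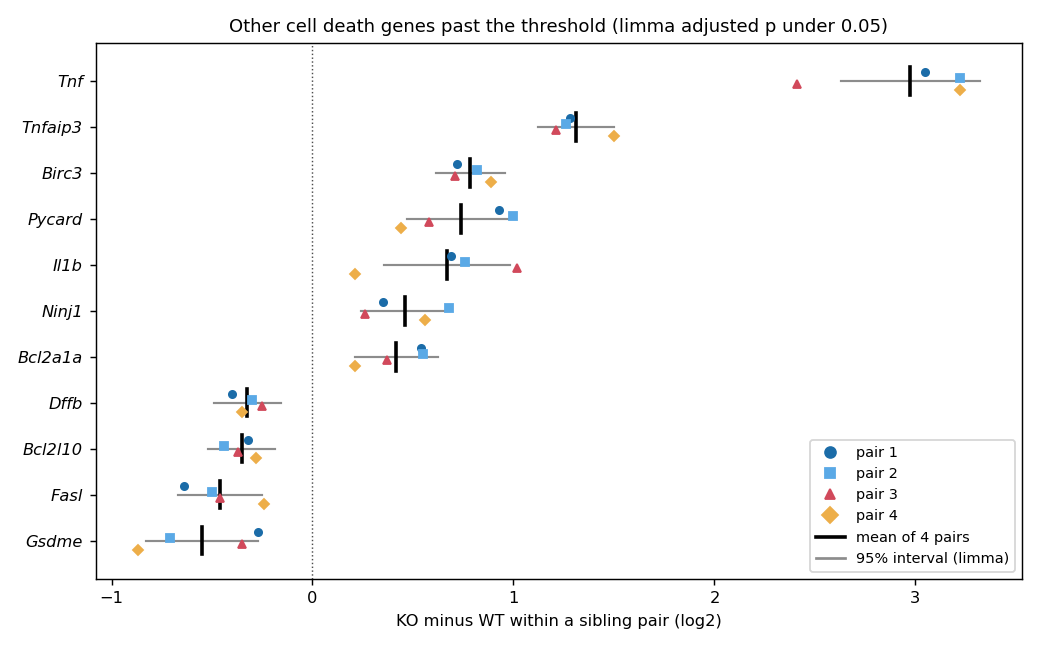
KO minus WT within each sibling pair (log2, x axis) for the 11 other cell death genes past the threshold; symbols are pairs, black bars the mean of 4 pairs and grey lines the 95% interval. Tnf stands apart at 2.98, and the pairs of Birc3 and Tnfaip3 lie close together.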

How the data were processed

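The values are the authors' deposited log2 expression values, 1 column per mouse. Per the submitters' processing notes, the tools were RMA and version 4.0 of the Transcriptome Analysis Console; no source used here states a genome build or further settings. The array medians lay between 6.77 and 6.81. Pair means were nearly equal (median SD 0.0175, against 0.0897 from the within-pair spread), and siblings deviated in opposite directions from their groups (r from −0.913 to −0.870). Pairing comes from the labels. The 4 differences correlated more between pairs 1 and 2 (0.682) and between pairs 3 and 4 (0.673) than otherwise (0.346 to 0.420), so p-values may be too small.

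Differences were tested with lmFit and eBayes of limma 3.58.1 (R 4.3.3), the sibling pair being a block, over all 22206 probe sets (19572 named), two-sided. The fit was also tested on simulated data with pairs drawn independently, which does not cover the correlation between pairs given above. With 8 arrays, 3 residual degrees of freedom remained and 6.63 after moderation, and the number of arrays limits the precision. RNA integrity numbers ran from 7.0 to 8.7. The background level of 5.65 is the value that 95% of 1091 olfactory receptor probe sets did not exceed. Dim probe sets were not removed. The members and lists were chosen with earlier results of these data known. Named genes are all members, Nfkbia and, of the other cell death genes, up to 10 higher and 10 lower past the threshold with 1 direction in 4 of 4 pairs; uncalled genes of that list are named for comparison after their values were seen. Other settings were no block, sex, RNA integrity, quantile normalization, a filter on dim probe sets, housekeeping centring, a trended robust variance, leaving out pairs and a threshold of 0.1.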

Additional observations from a re-analysis of the deposited data

Results flagged for a closer look

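Of 86 groups of 4 values (43 genes, KO and WT), 2 held a value far from the others, and chance gives about 1 in 20. Cflar was 10.24 in WT mouse 1 and 10.14 in the other 3 WT mice. Nfkbia was 7.72 in KO mouse 3 and between 6.65 and 6.82 in the other KO mice.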

How the results depend on the processing

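Values below are members called higher and lower, then probe sets called higher and lower, then other cell death genes called. Without the sibling block they were 12, 6, 3622, 4026 and 33, against 4, 1, 702, 599 and 11 with it. With sex added they were 1, 0, 231, 233 and 4, and with RNA integrity added 1, 0, 212, 152 and 4 (member median 0.085). Members called lower were 2 without dim probe sets, with quantile normalization, with a trended robust variance (1135 probe sets higher) and at a threshold of 0.1 (1673 and 1631 probe sets). Housekeeping centring called 6 members and 5175 probe sets lower and 22 other genes, with a member median of −0.046. Without pairs 1 and 2 the values were 0, 0, 1, 25 and 0, and without pairs 3 and 4 all were 0 by limma, although 2540 probe sets were higher at an unadjusted p under 0.05. Leaving out 1 pair at a time gave 0 to 2 members higher, 0 to 1 lower, 89 to 219 and 56 to 240 probe sets, 3 to 5 other genes and member medians of 0.093 to 0.15. Fewer samples lower the power in these fits; other causes were not tested.

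Signs turned for uncalled genes. With housekeeping centring these were Tnfrsf10b −0.13, Apaf1 −0.036, Casp12 −0.026, Diablo −0.15, Bcl2 −0.046, Gsdmd −0.031, Gsdmc4 −0.094 and Nlrp6 −0.11; with RNA integrity, Gsdmc4 −0.012; with quantile normalization, Diablo −0.018. Over the fits without 1 pair, the other ends of the ranges were Tnfrsf10b 0.12, Casp12 0.22, Diablo 0.047, Bcl2l1 −0.18, Gsdmc2 −0.54, Gsdmc4 0.25 and Nlrp6 0.12. Without pair 1 the turned signs were Casp12 −0.0067 and Bcl2l1 0.033; without pair 2, Tnfrsf10b −0.050 and Diablo −0.0033; without pair 3, Gsdmc4 −0.26; without pair 4, Gsdmc2 0.013 and Nlrp6 −0.027. Without pairs 1 and 2 they were Tnfrsf10b −0.085, Casp9 0.040, Xiap 0.015, Bcl2l1 0.15, Gsdmd −0.015 and Gsdmc2 0.21; without pairs 3 and 4, Apaf1 −0.0050, Gsdmc4 −0.32 and Nlrp6 −0.14. Choosing another probe set per gene was not run, since each member has 1.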

Other observations

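Among the measured cell death genes that were not called by limma, several sensors differed mainly in 1 set of pairs; these were chosen after their values were seen. Zbp1, a nucleic acid sensor that can engage RIPK3, differed by 0.97, 0.88, 0.25 and 0.31 in pairs 1 to 4. Nlrp9b, an inflammasome sensor of the NLR family, differed by −1.17, −0.95, −0.11 and −0.03. Naip5, which senses bacterial flagellin, differed by −0.65, −0.69, 0.04 and −0.15, and Nlrc4, which NAIPs engage, by 0.03, 0.07, 0.61 and 0.63. The adjusted p-values of these 4 genes were 0.0592, 0.142, 0.155 and 0.157. The difference between the sets of pairs was not tested.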
